A study of Homo sapiens with 8 samples.

Results

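The 37 genes described here are chaperones, folding enzymes, degradation factors, translocation components and stress sensors of the endoplasmic reticulum (ER) that are associated with the unfolded protein response (UPR). They were chosen as a fixed list of gene symbols, matched through GENCODE release 44 on GRCh38 to the Ensembl identifiers of the counts. All 37 were found among the 60624 genes counted and all passed the filter on low counts, which left 18661 genes. RNA was sequenced from A549, an established human lung adenocarcinoma cell line, in 8 libraries that form 4 groups of 2 technical replicates. The groups were untreated cells, cells given 0.5 μM indisulam, cells given 5 μM SPHINX31, and cells given both at these doses (the combination), with 24 h of exposure. These conditions come from the methods text, whereas the protocol in the labels of all 8 libraries names 2 μM indisulam and 18 h, which could not be resolved here. Indisulam is a molecular glue that recruits the splicing factor RBM39 to a ubiquitin ligase for degradation, and SPHINX31 inhibits SRPK1, a kinase of splicing factors, with possible further targets such as CLK1 that these data do not separate. All libraries came from 1 cell line, and the technical replicates do not include variation between independent treatments, so that p-values measure the spread between these libraries alone.

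The UPR is the program by which a cell adjusts the folding capacity of the ER to its load of unfolded proteins. It has 3 membrane sensors: IRE1α (encoded by ERN1), which splices XBP1 mRNA to give an active transcription factor, ATF6, which is cut by proteases in the Golgi to release another, and PERK (EIF2AK3), which slows translation and raises ATF4. The targets include the Hsp70 protein BiP (HSPA5) and its cofactors, the calnexin and calreticulin cycle, protein disulphide isomerases, and ER-associated degradation (ERAD), which returns misfolded proteins to the cytosol for the proteasome. The counts give total mRNA of each gene, not XBP1 splicing, cleavage of ATF6 or phosphorylation of PERK.

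The libraries held between 51727369 and 63186989 counts on genes. The share of recorded reads outside annotated features was 4.49% to 5.87% in the 4 libraries with indisulam and 3.67% to 4.34% in the other 4, and its part in the results was not tested. RBM39 mRNA was higher with indisulam (log2 fold change 1.22, SE 0.054) and SRPK1 mRNA was lower (-0.33, SE 0.055). The epithelial keratin KRT8 lay between 3474 and 4103 CPM in all libraries, and the summed level of 5 epithelial markers was 8245 to 8291 CPM in untreated cells, 7769 to 7971 with indisulam, 7038 to 7228 with SPHINX31 and 7266 to 7424 with the combination. The part of this in the results was not tested. Of 10 leukocyte, endothelial and fibroblast markers 7 stayed under 1 CPM in every library, and CD3E and MS4A1 were at 0 throughout. CPM here are counts scaled to a common library size after TMM adjustment, so that a change is relative to the other RNAs of the library, and less RNA of a gene per cell and fewer cells that express it cannot be told apart.

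The 37 genes spanned a wide range of levels in untreated A549 cells. Per kilobase of the canonical transcript, HSP90B1 (GRP94, the Hsp90 chaperone of the ER) was highest at 682 CPM per kb, followed by the disulphide isomerase P4HB at 402, calreticulin (CALR) at 328 and calnexin (CANX) at 327 CPM per kb. CALR and CANX are neighbours in this order and are nearly equal. HSPA5 stood at 175 CPM per kb and XBP1 at 100.2 CPM per kb. The sensors were low, with 11.8 CPM per kb for ATF6, 10.1 for ERN1 and 5.42 for EIF2AK3. The level per length of DNAJC10 (10.0 CPM per kb) rests on a canonical transcript of 20144 bases, and a shorter transcript in use would raise it. DERL3 was lowest at 0.128 CPM per kb, with 12 to 28 counts per library, and its exons share 2923 bases with SMARCB1 on the other strand. The other 36 genes had at least 472 counts in every library, and their median coefficient of variation between the 2 libraries of a group was 1.83% to 2.76%.

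**Figure D1:**
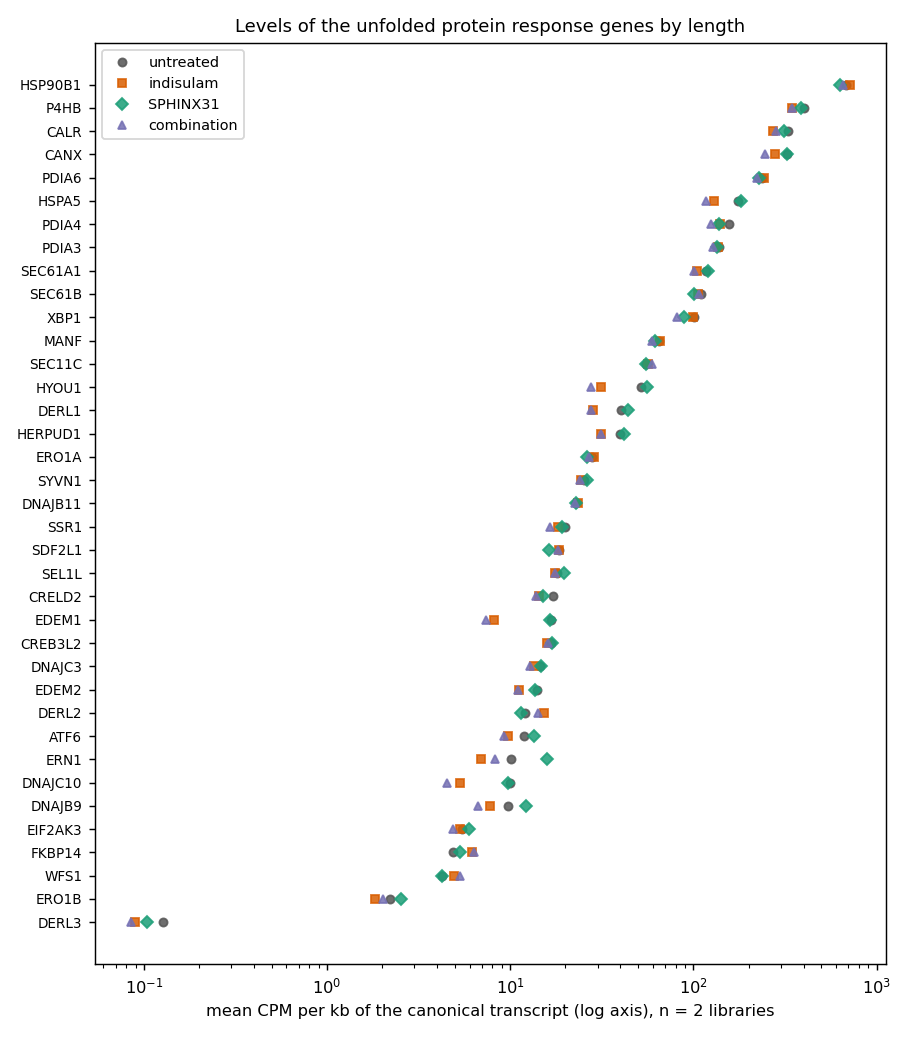
Mean CPM per kilobase of the canonical transcript (log axis) of the 37 genes, ordered by the untreated level, with 1 symbol for the mean of the 2 libraries of each group. The order runs from HSP90B1 at 682 to DERL3 at 0.128 CPM per kb in untreated cells, and the symbols of EDEM1, DNAJC10 and HYOU1 with indisulam lie to the left of the untreated ones.

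Transcription of UPR genes is known to be controlled through short promoter elements, which are shown here because the genes were studied as 1 module. The promoters are RefSeq sequences on GRCh38.p14 from 250 bases before to 50 bases after the transcription start, with 33 of the 37 genes matched. PDIA3, FKBP14, DERL1 and DERL3 had no match. Both strands were searched for the ER stress response element (ERSE: CCAAT, then 9 bases, then CCACG), for ERSE-II (ATTGG, 1 base, CCACG), for TGACGTGG, the core of the UPR element (UPRE), and for CCACG alone, which all 3 can hold. An ERSE was found in 7 of 33 UPR promoters (21.2%) and in 22 of all 27305 promoters of the same length (0.0806%). ERSE-II was found in 3 (9.09%) against 15 of all (0.0549%), the UPRE core in 2 (6.06%) against 217 (0.795%), and CCACG in 23 (69.7%) against 10348 (37.9%). The elements are known from UPR genes, so that their higher share among these promoters is not an independent result. A match is a description of the sequence and does not show that a factor binds there. 11 UPR genes held at least 1 of the 3 elements, and their ERSE and ERSE-II matches read as follows, 5′ to 3′ in the element's own direction, with the fixed bases in capitals. Positions are counted from the transcription start to the element's farthest base, which is the last base printed where the element lies on the strand opposite to the gene.
CALR ERSE, chr19:12938384-12938402, gene on the plus strand, element on the opposite strand, farthest base at -225: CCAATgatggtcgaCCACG
CANX ERSE, chr5:179698778-179698796, gene on the plus strand, element on the same strand, farthest base at -151: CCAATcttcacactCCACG
CRELD2 ERSE, chr22:49918554-49918572, gene on the plus strand, element on the opposite strand, farthest base at -80: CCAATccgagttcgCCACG
ERO1B ERSE, chr1:236282183-236282201, gene on the minus strand, element on the opposite strand, farthest base at -243: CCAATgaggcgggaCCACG
HERPUD1 ERSE-II, chr16:56932025-56932035, gene on the plus strand, element on the same strand, farthest base at -117: ATTGGgCCACG
HSP90B1 ERSE, chr12:103930216-103930234, gene on the plus strand, element on the same strand, farthest base at -194: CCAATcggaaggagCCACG
HSP90B1 ERSE, chr12:103930321-103930339, gene on the plus strand, element on the opposite strand, farthest base at -89: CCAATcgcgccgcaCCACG
HSPA5 ERSE, chr9:125241391-125241409, gene on the minus strand, element on the same strand, farthest base at -66: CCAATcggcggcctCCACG
HYOU1 ERSE-II, chr11:119057380-119057390, gene on the minus strand, element on the opposite strand, farthest base at -185: ATTGGaCCACG
HYOU1 ERSE-II, chr11:119057274-119057284, gene on the minus strand, element on the opposite strand, farthest base at -79: ATTGGaCCACG
SDF2L1 ERSE-II, chr22:21642114-21642124, gene on the plus strand, element on the opposite strand, farthest base at -188: ATTGGtCCACG
XBP1 ERSE, chr22:28800603-28800621, gene on the minus strand, element on the same strand, farthest base at -52: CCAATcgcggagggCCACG

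The 9 bases between the fixed ends differ in all 8 ERSE matches, while CCAAT and CCACG are the same by the search. The farthest bases of the matches lay between 243 and 52 bases before the start. DNAJC10, which recruits BiP to misfolded disulphide-bonded proteins, held only a UPRE core, 125 bases before the start on the reverse strand. HYOU1 (an Hsp110-type exchange factor of BiP) held a UPRE core at -188 that shares bases with its ERSE-II at -185, and a further ERSE-II at -79. The 250 bases before the start are shown for HSPA5, HYOU1 and HSP90B1, of which the first 2 fell with indisulam and the third did not pass, on the strand of the gene with the elements in capitals, so that an element on the reverse strand appears as its reverse complement.
HSPA5, chr9:125241344-125241593, minus strand: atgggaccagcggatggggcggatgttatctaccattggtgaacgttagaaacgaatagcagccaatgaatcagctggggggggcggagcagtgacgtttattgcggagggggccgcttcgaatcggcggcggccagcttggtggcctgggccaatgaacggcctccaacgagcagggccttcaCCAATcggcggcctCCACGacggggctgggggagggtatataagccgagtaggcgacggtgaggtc
HYOU1, chr11:119057206-119057455, minus strand: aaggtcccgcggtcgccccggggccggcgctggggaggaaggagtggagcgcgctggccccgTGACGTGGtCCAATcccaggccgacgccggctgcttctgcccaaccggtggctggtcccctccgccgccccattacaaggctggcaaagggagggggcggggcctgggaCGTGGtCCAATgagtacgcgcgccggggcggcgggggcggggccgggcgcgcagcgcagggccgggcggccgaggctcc
HSP90B1, chr12:103930160-103930409, plus strand: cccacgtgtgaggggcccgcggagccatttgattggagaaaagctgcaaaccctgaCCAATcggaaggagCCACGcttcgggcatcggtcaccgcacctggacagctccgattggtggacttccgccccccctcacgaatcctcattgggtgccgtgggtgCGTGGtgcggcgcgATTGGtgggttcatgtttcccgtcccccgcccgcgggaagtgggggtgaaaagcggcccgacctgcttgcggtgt

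The first comparison asked how the UPR genes stood in cells given indisulam alone. With indisulam, 18 of the 37 UPR genes fell and 2 rose, led by falls of the mannosidase-like ERAD factor EDEM1 to 0.484 times and of DNAJC10 to 0.528 times the untreated level. BiP fell to 0.742 times. The 2 genes that rose were FKBP14, a prolyl isomerase of the ER, and DERL2, a derlin of the ERAD channel. The 20 calls (edgeR's quasi-likelihood test, Benjamini-Hochberg adjusted p under 0.05) are 54.1% of the list, beside 43.6% of all genes tested. Lower were 48.6% of the UPR genes and 23.5% of all genes, and higher were 5.41% against 20.1%. Among genes with a mean log2 CPM of at least 3, a background added after the data were seen because UPR genes are well expressed, 18 of 36 UPR genes were lower, beside 26.4% of all 9980. The median log2 fold change was -0.14 over the list and -0.0041 over all genes. Regardless of sign, the median size was 0.206 over the list and 0.262 over all genes. 5 UPR genes (13.5%) were lower by at least 0.5 on the log2 scale (EDEM1, DNAJC10, HYOU1, ERN1 and DERL1), beside 12.8% of all genes. Fewer UPR genes passed without untreated replicate 1, and fewer of all genes passed as well.

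**Figure D2:**
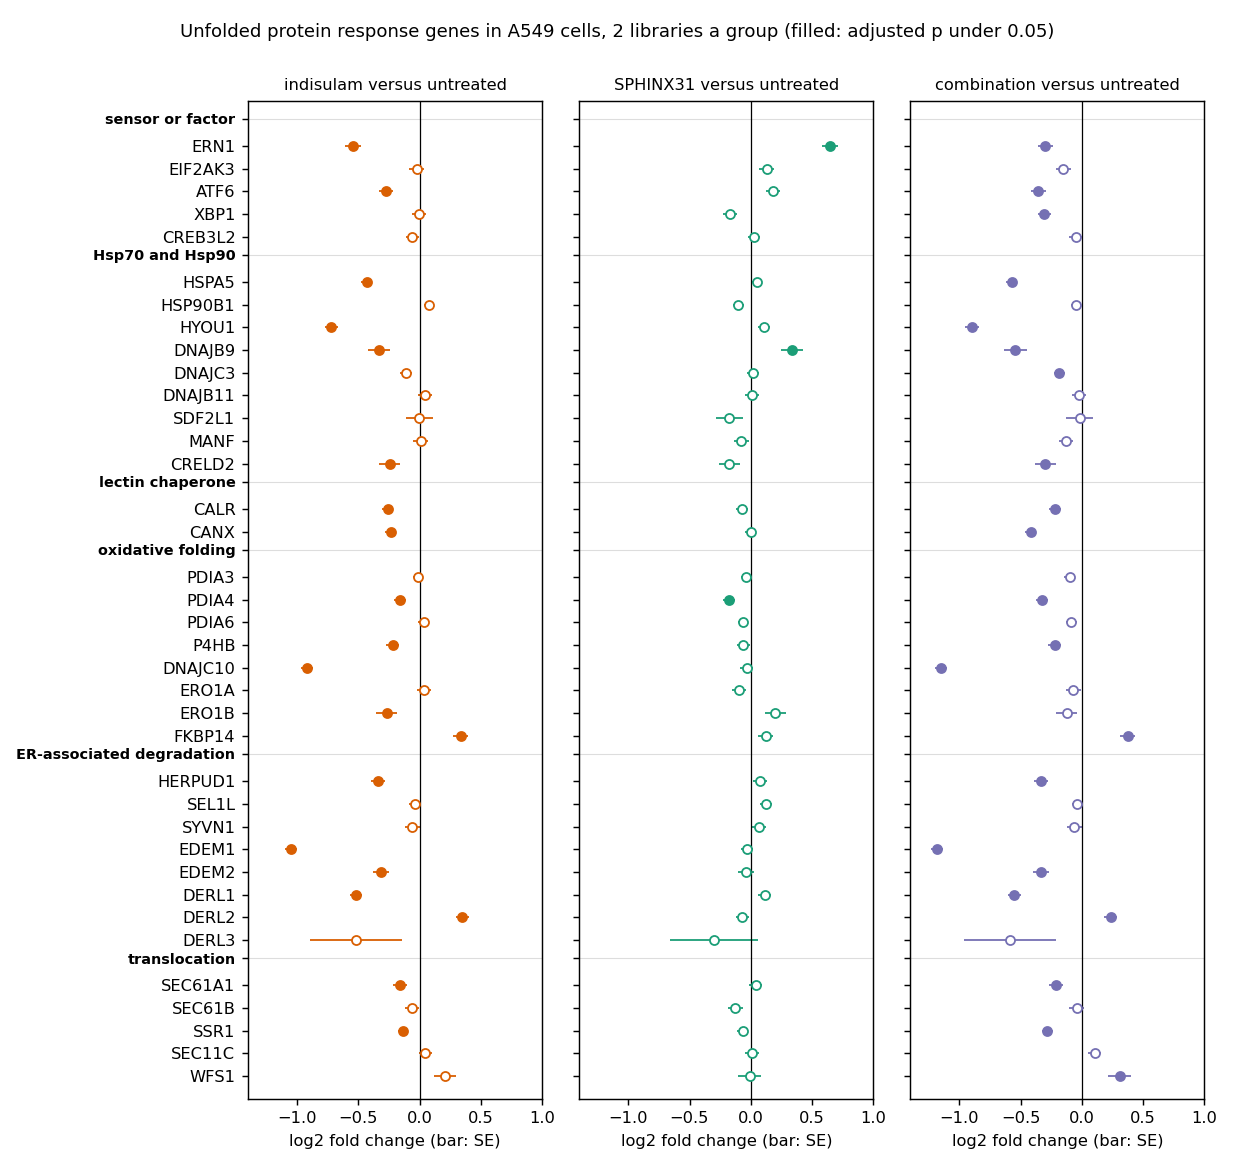
Log2 fold changes (points) with standard errors (bars) of the 37 genes, grouped by role, with 1 panel for each treated group against untreated cells and 2 libraries a group. Filled points passed an adjusted p under 0.05: 20 with indisulam, 3 with SPHINX31 and 22 with the combination, with EDEM1 (-1.05 and -1.18) the lowest with indisulam and with the combination.

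Among the sensors, ERN1 (chromosome 17, 64039080 to 64130819) was the most variable. It was at 78.3 and 81.4 CPM in the untreated libraries, 56.6 and 52.9 with indisulam, 131 and 119 with SPHINX31, and 61.8 and 68.2 with the combination. The 4 groups did not overlap, with SPHINX31 above and both groups with indisulam below untreated cells. With indisulam it changed by -0.55 on the log2 scale (SE 0.066, adjusted p = 1.46e-05), with SPHINX31 by 0.64 (SE 0.064, adjusted p = 4.89e-05) and with the combination by -0.30 (SE 0.065, adjusted p = 0.00168).
ATF6 had 86.9 and 89.8 CPM untreated, 73.8 and 72.3 with indisulam, 100.7 and 99.6 with SPHINX31, and 65.0 and 73.2 with the combination. It was below the untreated libraries in all 4 libraries with indisulam, by -0.27 (SE 0.058, adjusted p = 0.00175) with indisulam alone and -0.35 (SE 0.058, adjusted p = 0.000176) with the combination. With SPHINX31 its log2 fold change of 0.18 did not pass (adjusted p = 0.068).
EIF2AK3, the PERK gene, had 24.3 and 24.9 CPM untreated, 24.6 and 23.7 with indisulam, 26.9 and 26.9 with SPHINX31, and 22.7 and 21.6 with the combination. No comparison with untreated cells passed for it, and the combination was at -0.15 (SE 0.062, adjusted p = 0.0594).
XBP1, the target of IRE1α, had 186 and 173 CPM untreated, 174 and 183 with indisulam, 164 and 155 with SPHINX31, and 142 and 148 with the combination. The untreated and indisulam libraries overlapped (log2 fold change -0.0058, SE 0.054), whereas the combination was below both (-0.31, SE 0.054, adjusted p = 0.000306).
CREB3L2, an ER-anchored transcription factor of the ATF6 type, lay between 118 and 132 CPM in all 8 libraries and passed in no comparison.

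In the Hsp70 and Hsp90 system 4 of 9 genes fell with indisulam and none rose, beside 23.5% of all genes lower and 20.1% higher. HSPA5 (chromosome 9, 125234853 to 125241382) had 696 and 674 CPM in untreated libraries, 502 and 515 with indisulam, 715 and 704 with SPHINX31, and 449 and 472 with the combination. All 4 libraries with indisulam were below all 4 without it. BiP mRNA changed by -0.43 on the log2 scale with indisulam (SE 0.045, adjusted p = 4.04e-06) and by -0.57 with the combination (SE 0.045, adjusted p = 1.79e-07).
HYOU1 (chromosome 11, 119044188 to 119057227) showed the same order at 241 and 234 CPM untreated, 145 and 143 with indisulam, 269 and 243 with SPHINX31, and 128 and 127 with the combination. It fell by 0.72 on the log2 scale with indisulam (SE 0.053, adjusted p = 1.57e-07) and by 0.90 with the combination (SE 0.054, adjusted p = 1.23e-08).
DNAJB9 (ERdj4, a J-domain cofactor of BiP that also represses IRE1α) had 23.9 and 22.8 CPM untreated, 17.3 and 19.9 with indisulam, 32.2 and 26.7 with SPHINX31, and 15.5 and 16.5 with the combination. It was below untreated cells with indisulam (-0.33, SE 0.093, adjusted p = 0.0104), a call lost without untreated replicate 1 or indisulam replicate 1 and with GC offsets.
HSP90B1, by contrast, lay at 1925 and 1868 CPM untreated, 2023 and 1972 with indisulam, 1738 and 1794 with SPHINX31, and 1808 and 1855 with the combination. It passed in no comparison. Its promoter holds 2 exact ERSE matches and that of HSPA5 holds 1, in a search that leaves out near matches. CRELD2, a secreted folding factor, fell with indisulam (-0.25, SE 0.088, adjusted p = 0.0352), a call lost without untreated replicate 1 or indisulam replicate 1 and with DESeq2. The exons of CRELD2 share 168 bases with ALG12 on the other strand, and the strand setting of the counting is not given. ALG12 had a mean of 1633 counts and CRELD2 of 1240. The J-domain proteins DNAJC3 and DNAJB11, the BiP cofactor SDF2L1 and the secreted protein MANF did not pass, with log2 fold changes from -0.11 to 0.041.

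Both lectin chaperones, which hold newly made glycoproteins in the folding cycle, fell with indisulam, beside 23.5% of all genes lower and 20.1% higher. Both were also lower with the combination, beside 26.2% of all genes. CALR had 639.6 and 607 CPM untreated, 519 and 521 with indisulam, 578 and 607 with SPHINX31, and 537 and 534 with the combination. It fell by 0.26 on the log2 scale (SE 0.046, adjusted p = 0.000408) with indisulam and by 0.22 (SE 0.046, adjusted p = 0.00123) with the combination. CANX had 1614 and 1595 CPM untreated, 1359 and 1368 with indisulam, 1568 and 1639 with SPHINX31, and 1170 and 1234 with the combination. The 3 levels of CANX, without indisulam, with indisulam and with the combination, were separate, at -0.24 (SE 0.045, adjusted p = 0.000735) with indisulam and -0.42 (SE 0.045, adjusted p = 3.52e-06) with the combination.

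Of 8 genes of oxidative folding and isomerization, 4 fell and FKBP14 rose with indisulam, beside 23.5% of all genes lower and 20.1% higher. DNAJC10 (ERdj5, a disulphide reductase of the ERAD pathway, chromosome 2, 182716255 to 182794464) had 205 and 198 CPM untreated, 107 and 106 with indisulam, 190.1 and 204 with SPHINX31, and 88.6 and 92.8 with the combination. The fall was -0.92 (SE 0.052, adjusted p = 1.18e-08) with indisulam and -1.15 (SE 0.052, adjusted p = 9e-10) with the combination.
PDIA4, a disulphide isomerase, had 448 and 418 CPM untreated, 374 and 400.1 with indisulam, 385 and 383 with SPHINX31, and 350.4 and 342 with the combination. All 6 treated libraries were below both untreated ones, with log2 fold changes of -0.16 (SE 0.050, adjusted p = 0.0173) with indisulam, -0.18 (SE 0.050, adjusted p = 0.045) with SPHINX31 and -0.32 (SE 0.050, adjusted p = 0.000109) with the combination. The indisulam call was lost without untreated replicate 1 or indisulam replicate 1.
FKBP14 had 23.2 and 25.5 CPM untreated, 30.3 and 31.1 with indisulam, 26.2 and 26.8 with SPHINX31, and 31.4 and 31.7 with the combination. It rose by 0.33 (SE 0.064, adjusted p = 0.000772) with indisulam and 0.37 (SE 0.063, adjusted p = 0.000228) with the combination.
P4HB (-0.22, adjusted p = 0.00403) and the oxidase ERO1B (-0.27, adjusted p = 0.0208) also fell with indisulam. The call for ERO1B was lost with DESeq2 and with any 1 of the untreated or indisulam libraries left out. That for P4HB was lost without untreated replicate 1 or indisulam replicate 1. PDIA3, PDIA6 and the main oxidase ERO1A did not pass, with log2 fold changes from -0.014 to 0.033.

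ERAD held the gene with the largest fall and 1 of the 2 genes that rose. EDEM1 (chromosome 3, 5187646 to 5219958), which draws mannose-trimmed glycoproteins out of the folding cycle, had 103 and 102 CPM untreated, 49.1 and 50.3 with indisulam, 100.1 and 100.8 with SPHINX31, and 45.6 and 44.8 with the combination. It fell by 1.05 on the log2 scale (SE 0.049, adjusted p = 3.16e-09) with indisulam and by 1.18 (SE 0.050, adjusted p = 4.88e-10) with the combination, while SPHINX31 alone gave -0.032 (SE 0.048).
The derlins DERL1 and DERL2, related membrane proteins through which misfolded proteins leave the ER, moved in opposite directions. DERL1 had 131 and 129 CPM untreated, 87.7 and 93.5 with indisulam, 142 and 139 with SPHINX31, and 85.6 and 91.5 with the combination. DERL2 had 51.3 and 49.0 CPM untreated, 64.1 and 63.5 with indisulam, 48.1 and 47.5 with SPHINX31, and 59.2 and 58.7 with the combination. For both genes the libraries with and without indisulam were fully separate, with log2 fold changes with indisulam of -0.52 (SE 0.053, adjusted p = 3.03e-06) for DERL1 and 0.35 (SE 0.052, adjusted p = 0.000107) for DERL2. The exons of DERL1 share 333 bases with TBC1D31 and those of DERL2 share 301 bases with MIS12, each on the other strand, and the strand setting of the counting is not given in the sources used here.
DERL3 did not pass (-0.52, SE 0.38, adjusted p = 0.284), and at its depth a difference of this size was not detectable. HERPUD1, which assembles the ERAD ligase complex, fell by 0.34 (SE 0.058, adjusted p = 0.000341), and EDEM2, which starts mannose trimming, by 0.31 (SE 0.065, adjusted p = 0.00144). The ligase SYVN1 (HRD1) and its partner SEL1L were at -0.060 (SE 0.060) and -0.040 (SE 0.046) and did not pass. SYVN1 shares 130 exon bases with FAU on the same strand and 356 with MRPL49 on the other strand.

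Among 5 genes of translocation, signal peptide cleavage and the ER membrane, 2 fell with indisulam, beside 23.5% of all genes. SEC61A1, the pore of the translocon, had 429 and 406 CPM untreated, 362 and 385 with indisulam, 449 and 409.7 with SPHINX31, and 366 and 356 with the combination. Its exons share 622 bases with RUVBL1 on the other strand. SSR1, a subunit of the translocon-associated TRAP complex, had 193 and 193 CPM untreated, 175 and 175 with indisulam, 186 and 183 with SPHINX31, and 159 and 158 with the combination. Both were lower with indisulam, by -0.16 (SE 0.054, adjusted p = 0.0274) and -0.14 (SE 0.044, adjusted p = 0.022). The SSR1 call was lost with any 1 of the untreated or indisulam libraries left out. It was also lost when every gene with at least 1 count was tested. The SEC61A1 call was lost without untreated replicate 1 or indisulam replicate 1. WFS1, an ER membrane protein (wolframin), had 16.5 and 14.6 CPM untreated, 16.3 and 19.6 with indisulam, 16.0 and 14.9 with SPHINX31, and 19.7 and 18.8 with the combination. It rose with the combination (0.31, SE 0.092, adjusted p = 0.0124), a call lost without untreated replicate 2 or combination replicate 1, and was at 0.21 (adjusted p = 0.0876) with indisulam. SEC61B and the signal peptidase subunit SEC11C did not pass.

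**Figure D3:**
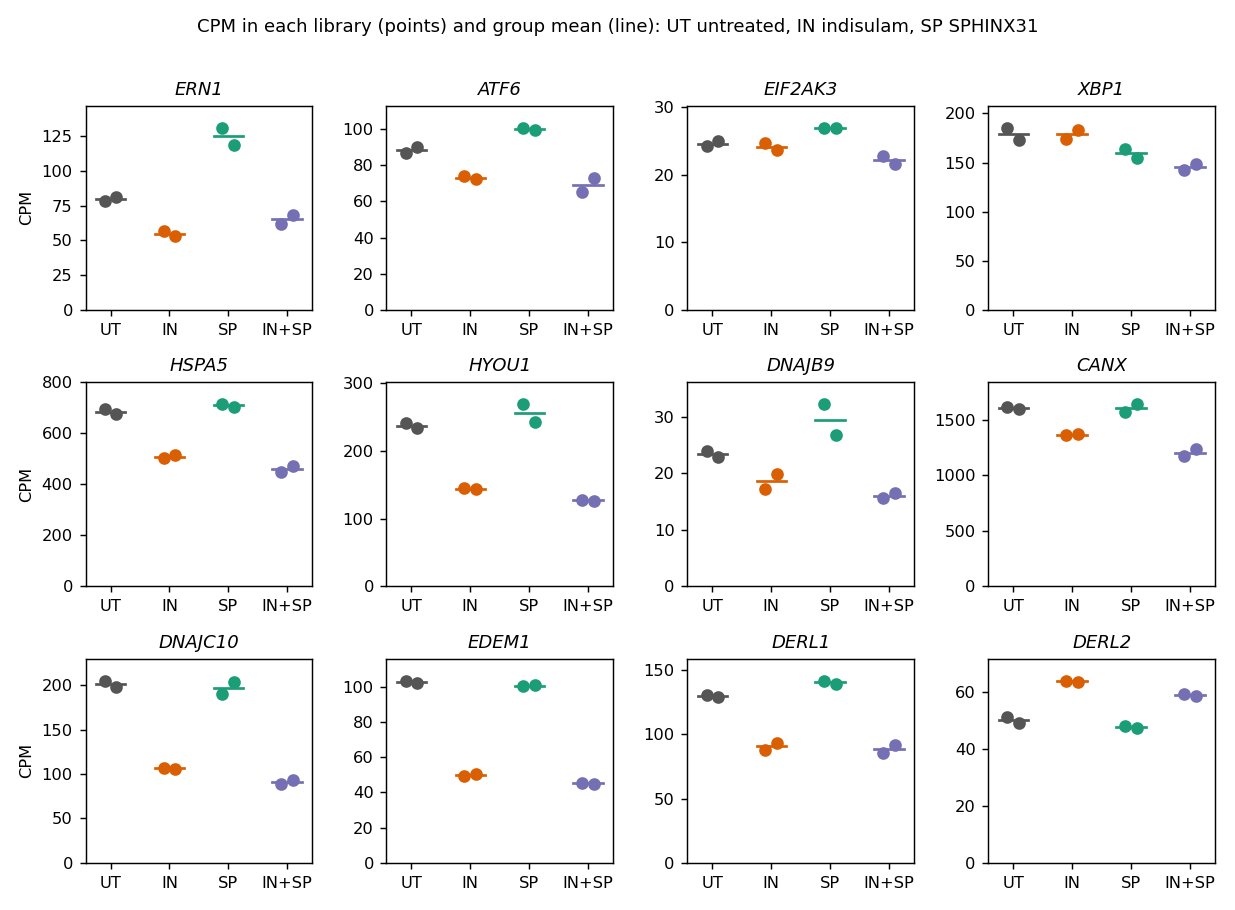
CPM of 12 UPR genes in each of the 8 libraries (points, axes from 0) with the mean of the 2 libraries of a group as a line. ERN1 and DNAJB9 are highest with SPHINX31 and lower in both groups with indisulam, EDEM1 (49.1 and 50.3 CPM) and DNAJC10 (107 and 106 CPM) with indisulam lie far below the untreated points, and DERL1 and DERL2 move in opposite directions.

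The 11 genes with an ERSE, ERSE-II or UPRE core before the start can be set beside the others. With indisulam 8 of these 11 were lower and none higher, with a median log2 fold change of -0.26. The 3 that did not pass were HSP90B1, SDF2L1 and XBP1. Of the 22 genes with a promoter and no match, 9 were lower and 1 higher, with a median of -0.061, and EDEM1, the gene with the largest fall, was among them. Over all genes tested 23.5% were lower and 20.1% higher with indisulam. The classes are small and the difference between them was not tested.

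SPHINX31 alone, which asked what this compound did without indisulam, changed 3 UPR genes. ERN1 rose to 1.56 times and DNAJB9 to 1.26 times the untreated level, and PDIA4 fell to 0.886 times. These are 8.11% of the list, beside 8.66% of all genes, so that the count is near the background. Higher were 5.41% of the UPR genes beside 5.03% of all genes, and lower were 2.7% beside 3.63%. The median log2 fold change over the list was -0.0099. ERN1 had the largest change of the list, and its call held under every alternative computed. The DNAJB9 call (0.33, SE 0.090, adjusted p = 0.0371) was lost without untreated replicate 1, untreated replicate 2 or SPHINX31 replicate 1, with GC offsets and with the replicate block. The PDIA4 call was lost without any 1 of the untreated or SPHINX31 libraries, with the replicate block, with library totals alone and with only the groups compared. When libraries were scaled by their totals alone, 4 UPR genes were higher and none lower. With GC offsets 2 were higher and 2 lower. Over all genes 1355 of 1868 calls were higher with totals alone, and 1400 of 2690 with GC offsets. The other 34 genes had log2 fold changes from -0.30 (DERL3) to 0.20 (ERO1B). HSPA5 was at 0.050 (SE 0.045) and HYOU1 at 0.11 (SE 0.053).

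The combination lowered 19 UPR genes and raised 3 against untreated cells. EDEM1 (0.440 times), DNAJC10 (0.450 times), HYOU1 (0.537 times), HSPA5 (0.672 times), DERL1 (0.682 times) and DNAJB9 (0.685 times) were the 6 genes lower by at least 0.5 on the log2 scale, which is 16.2% of the list beside 14.5% of all genes. FKBP14, DERL2 and WFS1 were the 3 genes that rose. The 22 calls are 59.5% of the list, beside 49.9% of all genes. Lower were 51.4% of the UPR genes against 26.2% of all genes, and higher were 8.11% against 23.8%. Among genes with a mean log2 CPM of at least 3, 19 of 36 UPR genes were lower, beside 31.4%. The median was -0.21 over the list and 0.00097 over all genes. Regardless of sign, the median size was 0.234 over the list and 0.301 over all genes. DNAJC3, a J-domain cofactor of BiP, fell in this comparison (-0.18, SE 0.048, adjusted p = 0.00597), a call lost without untreated replicate 2, and ERO1B did not pass (-0.13, SE 0.085). The combination and indisulam alone were set against the same untreated libraries, so that their calls are not independent.

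Against indisulam alone, which asked what SPHINX31 added, the combination changed 4 UPR genes. ERN1 was higher (0.25, SE 0.066, adjusted p = 0.0344), and XBP1 (-0.30, SE 0.054, adjusted p = 0.00423), DNAJC10 (-0.23, SE 0.052, adjusted p = 0.0149) and CANX (-0.18, SE 0.045, adjusted p = 0.0239) were lower. The 4 calls are 10.8% of the list, beside 7.64% of all genes. None of them held with each library left out. ERN1 was lost without indisulam replicate 2 or combination replicate 2 and with the replicate block, XBP1 without combination replicate 1, DNAJC10 without indisulam replicate 1 or either combination library, and CANX without any 1 of the 4 libraries and when libraries were scaled by their totals. With GC offsets 1 UPR gene was higher and 7 were lower, beside 2370 calls over all genes, of which 943 were higher. The remaining 33 genes lay between -0.21 and 0.14, and all 9 genes of the Hsp70 and Hsp90 system had a value below 0 without passing. Values were positive for 10 of the 37 UPR genes, beside 9432 of all 18661 genes.

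Against SPHINX31 alone, the combination had 3 UPR genes higher and 21 lower. The 24 calls are 64.9% of the list, beside 50% of all genes, and the lower ones are 56.8% beside 26.5%. EIF2AK3 was called in this comparison (-0.28, SE 0.062, adjusted p = 0.00196), as was SEL1L (-0.16, SE 0.046, adjusted p = 0.00927, lost without combination replicate 1). EDEM1 (-1.15, SE 0.050) and DNAJC10 (-1.12, SE 0.052) were again lowest, followed by HYOU1 (-1.0, SE 0.054) and ERN1 (-0.94, SE 0.065). The XBP1 call (-0.14, adjusted p = 0.0486) was lost in 11 of 12 alternatives at the same threshold.

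The interaction asked whether the combination differed from the sum of both single effects on the log2 scale. No UPR gene and no other gene passed an adjusted p under 0.05 with edgeR (0% of all genes), and DESeq2 called 31 genes, none of them on the UPR list. Over all genes 9352 of 18661 interaction values were positive, and over the list 10 of 37. Signs were not counted for all genes under an unadjusted p of 0.05. At an unadjusted p under 0.05 there were 8 UPR genes (21.6%), all with a negative value, beside 8.39% of all genes. They were ERN1 (-0.40, SE 0.092, adjusted p = 0.29), DNAJB9 (-0.55, SE 0.13, adjusted p = 0.306), HYOU1 (-0.28, SE 0.075, adjusted p = 0.342), ATF6 (-0.26, SE 0.082, adjusted p = 0.418), HSPA5 (-0.19, SE 0.064, adjusted p = 0.444), EIF2AK3 (-0.25, SE 0.088, adjusted p = 0.467), CANX (-0.18, SE 0.063, adjusted p = 0.468) and DNAJC10 (-0.20, SE 0.073, adjusted p = 0.494). ERN1 and DNAJB9 are the 2 genes that were higher with SPHINX31 alone and lower with indisulam alone, and in the combination both lay nearer to the indisulam level than to that with SPHINX31.

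Further ER genes outside the 37 were counted by role. Over all genes 20.1% were higher and 23.5% lower with indisulam. Of 24 other ER folding genes, 5 rose and 10 fell with indisulam, with a median log2 fold change of -0.15. The glycoprotein sensor UGGT2 (-1.09, SE 0.069, adjusted p = 3.55e-08) and TXNDC11 (-0.96, SE 0.065, adjusted p = 6.77e-08) fell most by the rule for named genes, and FKBP7 (0.92, SE 0.072, adjusted p = 2.71e-07) and ERP44 (0.35, SE 0.062, adjusted p = 0.000457) rose most. Of 20 other ERAD genes 6 rose and 2 fell. UFD1 (0.52), a partner of the segregase p97, and AUP1 (0.49) rose, and the conjugating enzymes UBE2J1 (-0.32) and UBE2G2 (-0.31) fell. Of 22 other genes of translocation and glycosylation 8 rose and 2 fell, with SRPRB (0.43), a subunit of the signal recognition particle receptor, and DAD1 (0.32), a subunit of the oligosaccharyltransferase, higher and SEC63 (-0.27) and SERP1 (-0.15) lower. With the combination the other translocation and glycosylation genes had 4 higher and 9 lower, the other ERAD genes 6 and 5, and the other folding genes 4 and 14. With SPHINX31 alone 1 other folding gene and 1 other ERAD gene were lower, and no gene of these 3 lists was higher. Over all genes 23.8% were higher and 26.2% lower with the combination, and 5.03% and 3.63% with SPHINX31.

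Beside 20.1% of all genes higher and 23.5% lower, 2 of 10 other UPR signalling genes rose (CREB3 and TMBIM6) and 4 fell with indisulam. The proteases that cleave ATF6 in the Golgi were among the latter. MBTPS2 had 106 and 103 CPM untreated, 65.0 and 64.3 with indisulam, 109 and 112 with SPHINX31, and 57.6 and 60.2 with the combination, which is -0.70 on the log2 scale with indisulam (SE 0.050, adjusted p = 1.19e-07). MBTPS1 was at -0.38 (SE 0.046, adjusted p = 1.85e-05) and is named after its value was seen. STC2, a secreted stress glycoprotein, fell with indisulam (-0.68, adjusted p = 1.09e-05) and rose with SPHINX31 (0.47, adjusted p = 0.00187).

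The PERK and ATF4 arm, a list of 10 genes with ATF4 and genes linked to it, had 5 lower and none higher with indisulam, 6 higher and none lower with SPHINX31, and 4 higher and 1 lower with the combination. Over all genes 23.5% were lower and 20.1% higher with indisulam, 5.03% higher and 3.63% lower with SPHINX31, and 23.8% higher and 26.2% lower with the combination. The lowest with indisulam were VLDLR (-1.32, SE 0.057) and TRIB3 (-0.79, SE 0.14). DDIT3 (CHOP), named after its values were seen, had 38.7 and 42.2 CPM untreated, 25.2 and 24.2 with indisulam, 86.2 and 74.1 with SPHINX31, and 40.7 and 52.7 with the combination. It fell with indisulam (-0.71, SE 0.12, adjusted p = 0.00057) and rose with SPHINX31 (0.99, SE 0.11, adjusted p = 0.000436), the directions that ERN1 and DNAJB9 showed. ATF4 mRNA itself stayed between 459.5 and 539 CPM and did not pass in the comparisons with untreated cells.

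**Figure D4:**
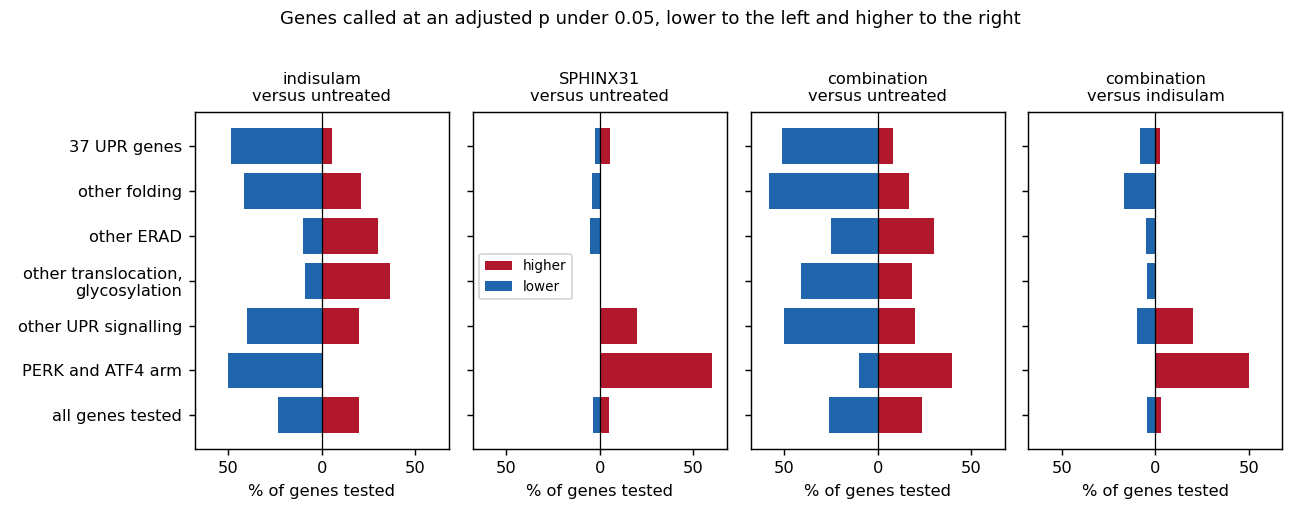
Share of genes tested (%) that were called lower (blue, to the left) and higher (red, to the right) at an adjusted p under 0.05 for the 37 UPR genes, 5 further lists and all genes in 4 comparisons. Of the 37 UPR genes 48.6% were lower with indisulam beside 23.5% of all genes. In the PERK and ATF4 arm 6 of 10 genes were higher with SPHINX31, beside 5.03% of all genes.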

How the data were processed

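Polyadenylated RNA was sequenced in 8 stranded libraries. The authors deposited raw counts per Ensembl gene; the submitters' processing notes name HISAT2 2.2.1, HTSeq and GRCh38, whereas strand setting and annotation release are not given in the sources used here. Reads not assigned to a gene, 14.0% to 17.0% of those recorded, stayed out of library sizes and tests. IDs were matched to GENCODE release 44, which covered 99.7% of the tested genes. Counts of all 8 libraries were filtered with filterByExpr, scaled with TMM and tested with edgeR 4.0.16 (quasi-likelihood, robust, no covariates, 4 residual degrees of freedom) in R 4.3.3, with Benjamini-Hochberg adjustment over 18661 genes and a threshold of 0.05. The steps were tested on simulated data. Groups follow the treatment named in the labels. Libraries of 1 group were not copies of each other (chi-square over genes divided by its degrees of freedom, 6.6 to 10.7). Values per library are given for the 5 sensors, for up to 3 called genes with the largest change per other role, and for genes called with SPHINX31 or between combination and indisulam; of further lists the 2 highest and 2 lowest called genes with a mean log2 CPM of at least 3 are named. HSP90B1 is shown in addition, chosen after its values were seen. The genes, lists and tests were chosen with earlier results of these data known. Alternatives were RLE factors, library totals alone, DESeq2 1.42.0, looser and stricter filters, only the groups compared, stricter thresholds, a replicate block, GC offsets (50 bins) and leaving out each library.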

Additional observations from a re-analysis of the deposited data

How the results depend on the processing

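No fold change of a UPR gene that was called changed sign under any alternative computed. At the same threshold, so without the stricter p and fold change limits, 13 of the 20 calls with indisulam against untreated held in all alternatives, with SPHINX31 1 of 3, with the combination 17 of 22, for the combination against indisulam 0 of 4 and against SPHINX31 17 of 24. Leaving out each library in turn, which leaves 1 library in its group and assumes that it varies like the others, gave 13 to 18 calls with indisulam, 1 to 3 with SPHINX31, 19 to 22 with the combination, 1 to 2 against indisulam, 17 to 21 against SPHINX31 and 0 for the interaction. With all 8 libraries, a log2 fold change of at least 0.5 left 5 calls with indisulam, 1 with SPHINX31 and 6 with the combination. It left 0 for the combination against indisulam and 8 against SPHINX31. Over all 18661 genes it left 3693, 383, 4683, 305 and 4492 in the same order. An adjusted p under 0.01 left 1 call with SPHINX31 and 1 for the combination against indisulam, beside 651 and 554 over all genes. The combination against indisulam had 8 calls with GC offsets and 7 with DESeq2, beside 2370 and 1391 over all genes. The interaction had 2 calls when every gene with at least 1 count was tested and 1 with GC offsets, all negative. Over all genes these 2 settings gave 92 and 31 calls. The causes of these differences were not tested.

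Same-numbered libraries deviated together in some pairs of groups and in opposite directions in others (correlation of deviations over 9980 genes 0.45 for untreated and SPHINX31, 0.17 for untreated and the combination, -0.57 for untreated and indisulam, -0.49 for indisulam and SPHINX31), so that the number was not taken as a pairing. With the replicate block the calls were 20 with indisulam, 1 with SPHINX31 and 22 with the combination. They were 3 against indisulam, 23 against SPHINX31 and 0 for the interaction. Over all genes the calls were 7868, 1365, 9081, 1204, 9064 and 0 in the same order. With the 2 indisulam numbers exchanged, added after the data were seen, 22 UPR genes and 8950 genes in all were called for indisulam. With 2 technical replicates a group, small changes of genes with few counts, such as DERL3, could not be resolved.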
